A study of Mus musculus with 6 samples.

Results

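The genes that build the N-linked glycan of the endoplasmic reticulum (ER) and attach it to new proteins were examined in the hearts of mice that carried an active form of ATF6β or ATF6α. The set held 36 genes, on an array with 21154 genes that had a transcript cluster of their own. A member was taken from every cluster whose gene symbol was or contained its name, and the cluster with the highest mean signal stood for the gene. All 36 were found, each through 1 cluster, and 2 of them shared that cluster with another gene (Dpm1 with Adnp, and Alg10b with Mir7648).

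Total RNA from ventricles was hybridised to Affymetrix Clariom S mouse arrays, 1 array per mouse and 2 mice per group. ATF6β-cn and ATF6α-cn mice carried a responder transgene for the transcriptionally active N-terminal part of mouse ATF6β or ATF6α together with the αMHC-tTA driver, and control mice carried αMHC-tTA alone. Both transgenes were injected into C57BL/6 oocytes, and doxycycline (DOX) kept them silent until it was withdrawn. The mice were 8 weeks old and had been without DOX for 4 weeks. The α-myosin heavy chain promoter restricts both driver and responder to cardiomyocytes, while the RNA came from all cells of the ventricle. In such tissue fewer cells of a type and less RNA per cell cannot be told apart.

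The values were log2 signals, in which 1 unit is a doubling, and a gene was called when its adjusted p from limma was under 0.05. Atf6b read 14.80 and 14.80 in ATF6β-cn, 8.65 and 9.18 in ATF6α-cn, and 8.72 and 8.63 in control. Atf6 read 12.25 and 11.94 in ATF6β-cn, 12.70 and 13.07 in ATF6α-cn, and 13.09 and 13.04 in control, so that no higher Atf6 signal was seen in ATF6α-cn. The position of the Atf6 probes relative to the transgene is unknown here, and probes outside it would check nothing. By qPCR the paper reports raised Atf6 message in ATF6α-cn hearts and raised Atf6b message in ATF6β-cn hearts. It also states that the transgenes were expressed at unequal levels. In a difference between the lines, the factor and its level therefore cannot be told apart. For scale, 8 of 8 chaperones known as ATF6 targets were called up in each line, with a median log2 fold change of 2.02 in ATF6β-cn and 2.29 in ATF6α-cn. Array medians lay between 5.58 and 5.64, and replicate arrays correlated at 0.990 to 0.991 across clusters. All 8 cardiomyocyte markers were above a background level of 5.03 (below which 95% of 1410 clusters for olfactory or vomeronasal receptors lay), and none was called. Several were very bright. Tnni3 read 17.98 and 17.98 in ATF6β-cn, 17.98 and 17.90 in ATF6α-cn, and 17.963 and 17.955 in control. Whether such bright probes could still show a moderate change was not tested.

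N-glycosylation starts on a lipid. Sugars are activated in the cytosol, the glycan is begun on the lipid dolichol at the cytosolic face of the ER membrane, it is flipped and completed on the lumenal face from dolichol-linked mannose and glucose, and the oligosaccharyltransferase then moves it as a block to asparagine residues of proteins that enter the ER. The transferase comes in forms built on either of a pair of catalytic subunits, Stt3a, which acts as the protein is translocated, and Stt3b, which reaches sites that were skipped. Around them sit shared subunits (Rpn1, Rpn2, Ddost, Dad1) and subunits of a single form (Ostc and Krtcap2 with Stt3a, Magt1 or Tusc3 with Stt3b). Matrix proteins, receptors and ion channels of the heart are among its products, and the glycan is also the tag by which ER lectins follow folding.

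In ATF6β-cn hearts the ribophorin Rpn1 was called up. The shared subunits Ddost and Rpn2 and the Stt3b-form subunit Magt1 were higher on both arrays without passing the test. The Stt3a-form subunits Krtcap2 and Ostc were also above control on both arrays, with log2 fold changes of 0.33 and 0.10, neither called. Both catalytic subunits stayed within 0.08 of control on the log2 scale in this line. The assembly genes had fold changes in both directions, with Gmppa highest and Dpm1 lowest, and none was called. In ATF6α-cn no member was called. Members called were 1 of 36 in ATF6β-cn, where 1.10% of all 22206 clusters were called, 0 of 36 in ATF6α-cn, where 0.0946% were called, and 1 of 36 in ATF6β-cn against ATF6α-cn, where 0.270% were called. At an unadjusted limma p under 0.05 the counts were 11 of 36 in ATF6β-cn (8 higher and 3 lower) beside 13.9% of all clusters, 2 of 36 in ATF6α-cn (both lower) beside 8.92%, and 7 of 36 between the lines (all higher in ATF6β-cn) beside 9.67%.

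**Figure D1:**
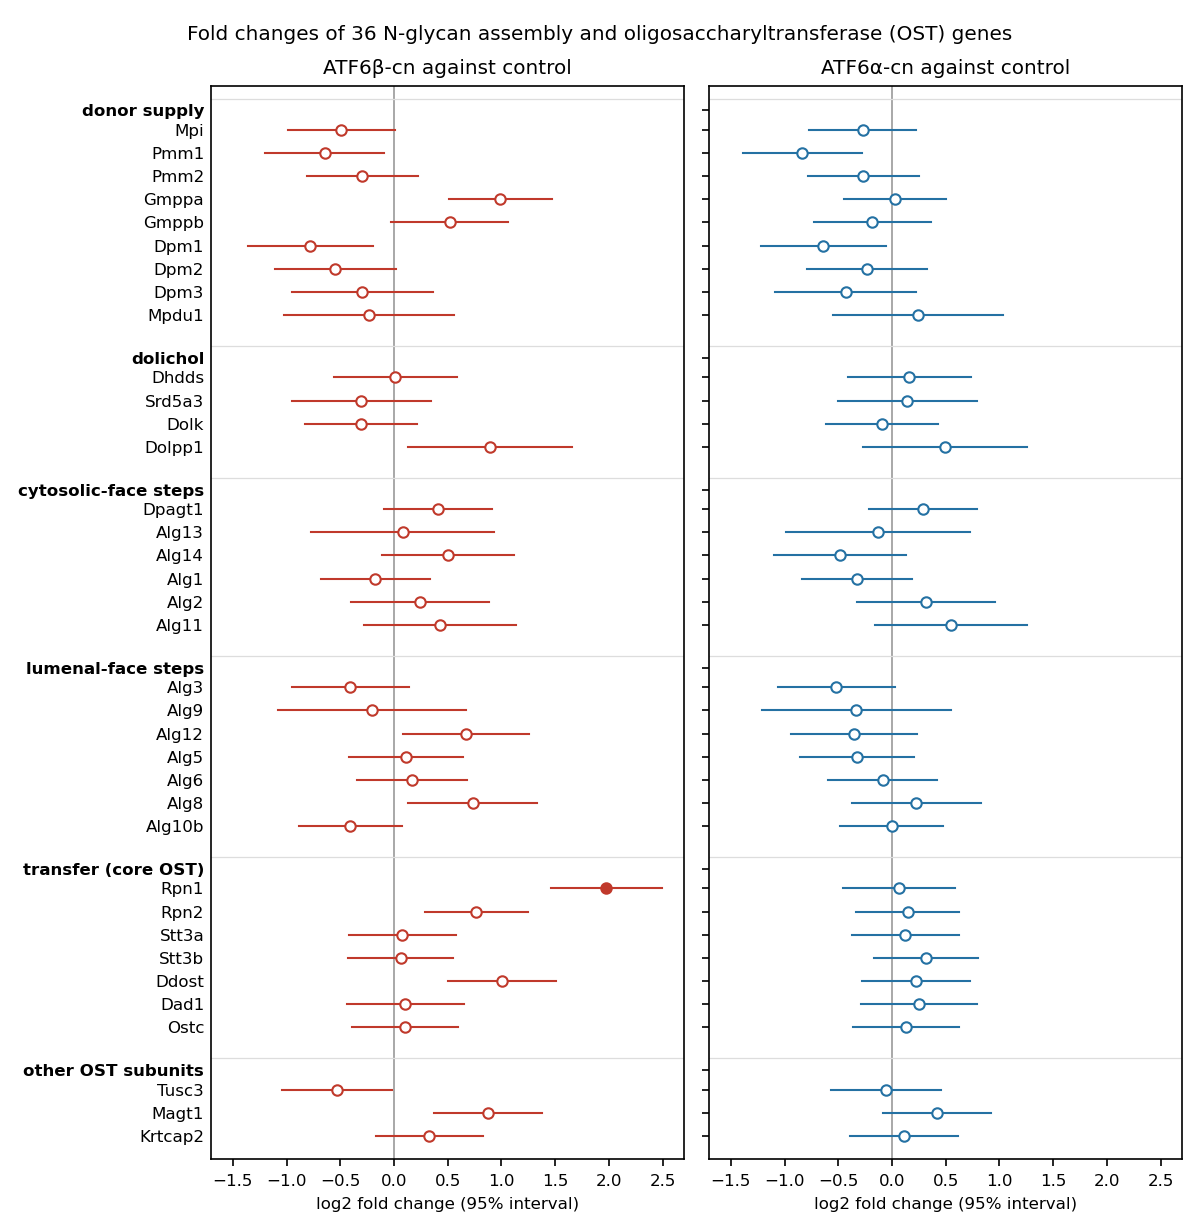
Log2 fold change against control of each of the 36 genes (rows, grouped by step) in ATF6β-cn (left) and ATF6α-cn (right), with 95% limma intervals; a filled point marks an adjusted p under 0.05. Rpn1 in ATF6β-cn, at 1.97, is the filled point, and no point is filled for ATF6α-cn.

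Rpn1, which helps bring protein substrates to the catalytic subunit, read 12.08 and 11.96 in ATF6β-cn, 10.30 and 9.91 in ATF6α-cn, and 9.998 and 10.09 in control. The ATF6β-cn arrays stood apart from all 4 others, among which the ATF6α-cn and control arrays overlapped. Rpn1 rose 3.93-fold in ATF6β-cn (log2 fold change 1.97, 95% interval 1.46 to 2.49, adjusted p = 0.00677 from limma), the 73rd highest of 22206 clusters. In ATF6α-cn its log2 fold change was 0.06 (−0.45 to 0.58, adjusted p = 0.954), and the direct difference of ATF6β-cn from ATF6α-cn was 1.91 (1.39 to 2.43, adjusted p = 0.0205). The call against control rests on all 4 of its arrays, since without ATF6β-cn replicate 1 or 2 the adjusted p from limma was 0.0687 or 0.0678, and without control replicate 1 or 2 it was 0.0538 or 0.0542. The call between the lines was lost without ATF6β-cn replicate 1 or 2 (adjusted p = 0.174 or 0.177) or ATF6α-cn replicate 2 (0.17).

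Ddost, a shared membrane subunit, read 11.85 and 11.66 in ATF6β-cn, 10.84 and 11.12 in ATF6α-cn, and 10.73 and 10.78 in control. Both lines lay above both control arrays, ATF6β-cn by far more. The log2 fold change was 1.01 (0.51 to 1.51, adjusted p = 0.0793 from limma) in ATF6β-cn and 0.23 (−0.28 to 0.73) in ATF6α-cn. Rpn2, the ribophorin that partners Rpn1, read 10.06 and 9.96 in ATF6β-cn, 9.46 and 9.31 in ATF6α-cn, and 9.32 and 9.17 in control. Its ATF6β-cn arrays were above the other 4, and its ATF6α-cn and control arrays overlapped. The log2 fold change was 0.77 (0.28 to 1.25, adjusted p = 0.154 from limma) in ATF6β-cn and 0.15 (−0.34 to 0.63) in ATF6α-cn. Between the lines Ddost differed by 0.78 (adjusted p = 0.273) and Rpn2 by 0.62 (adjusted p = 0.369), ATF6β-cn minus ATF6α-cn.

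The catalytic subunits read close to control in ATF6β-cn. Stt3a read 14.42 and 14.27 in ATF6β-cn, 14.35 and 14.43 in ATF6α-cn, and 14.12 and 14.42 in control, and all 3 groups overlapped. Its log2 fold change was 0.08 in ATF6β-cn, with an interval of −0.42 to 0.58, and 0.13 (−0.37 to 0.63) in ATF6α-cn. Stt3b read 12.05 and 12.27 in ATF6β-cn, 12.44 and 12.39 in ATF6α-cn, and 12.17 and 12.03 in control. Here the ATF6α-cn arrays were the highest and the ATF6β-cn and control arrays overlapped, with log2 fold changes of 0.06 (−0.42 to 0.55) in ATF6β-cn and 0.32 (−0.17 to 0.81) in ATF6α-cn. The ATF6β-cn intervals of both catalytic subunits end below the fold changes estimated for Rpn1, Ddost and Rpn2. They overlap the intervals of Ddost and Rpn2 but not that of Rpn1, and no test between genes was made. On each array the excess of Rpn1 over Stt3a, both taken relative to the control mean, was 1.88 and 1.91 in ATF6β-cn, 0.18 and −0.30 in ATF6α-cn, and 0.10 and −0.10 in control.

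Dad1, a small subunit needed for the stability of the complex, read 16.47 and 16.04 in ATF6β-cn, 16.27 and 16.54 in ATF6α-cn, and 16.21 and 16.10 in control. Its ATF6β-cn arrays lay on either side of control and its ATF6α-cn arrays above it, with log2 fold changes of 0.10 (−0.44 to 0.65) in ATF6β-cn and 0.25 (−0.29 to 0.79) in ATF6α-cn. Ostc, which belongs to the Stt3a form, read 10.07 and 10.004 in ATF6β-cn, 10.21 and 9.92 in ATF6α-cn, and 9.89 and 9.97 in control. Both ATF6β-cn arrays were slightly above both control arrays, with a log2 fold change of 0.10 (−0.39 to 0.60) in ATF6β-cn and 0.13 (−0.36 to 0.63) in ATF6α-cn. Krtcap2, also of the Stt3a form, had log2 fold changes of 0.33 in ATF6β-cn and 0.11 in ATF6α-cn. Its ATF6β-cn arrays, at 12.59 and 12.62, were above every ATF6α-cn and control array, but it was not called.

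Of the alternative oxidoreductase subunits of the Stt3b form, Magt1 was higher and Tusc3 lower in ATF6β-cn. Magt1 read 12.35 and 12.39 in ATF6β-cn, 11.96 and 11.86 in ATF6α-cn, and 11.33 and 11.66 in control, and the 3 groups did not overlap. Its log2 fold change was 0.87 (0.37 to 1.37, adjusted p = 0.125 from limma) in ATF6β-cn and 0.42 (−0.09 to 0.92) in ATF6α-cn. Tusc3 had a log2 fold change of −0.53 (−1.05 to −0.02, adjusted p = 0.341) in ATF6β-cn, lower on both arrays, and −0.05 in ATF6α-cn. The excess of Magt1 over Tusc3 relative to the control mean was 1.22 and 1.59 on the ATF6β-cn arrays, 0.63 and 0.32 on the ATF6α-cn arrays, and −0.11 and 0.11 on the control arrays.

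**Figure D2:**
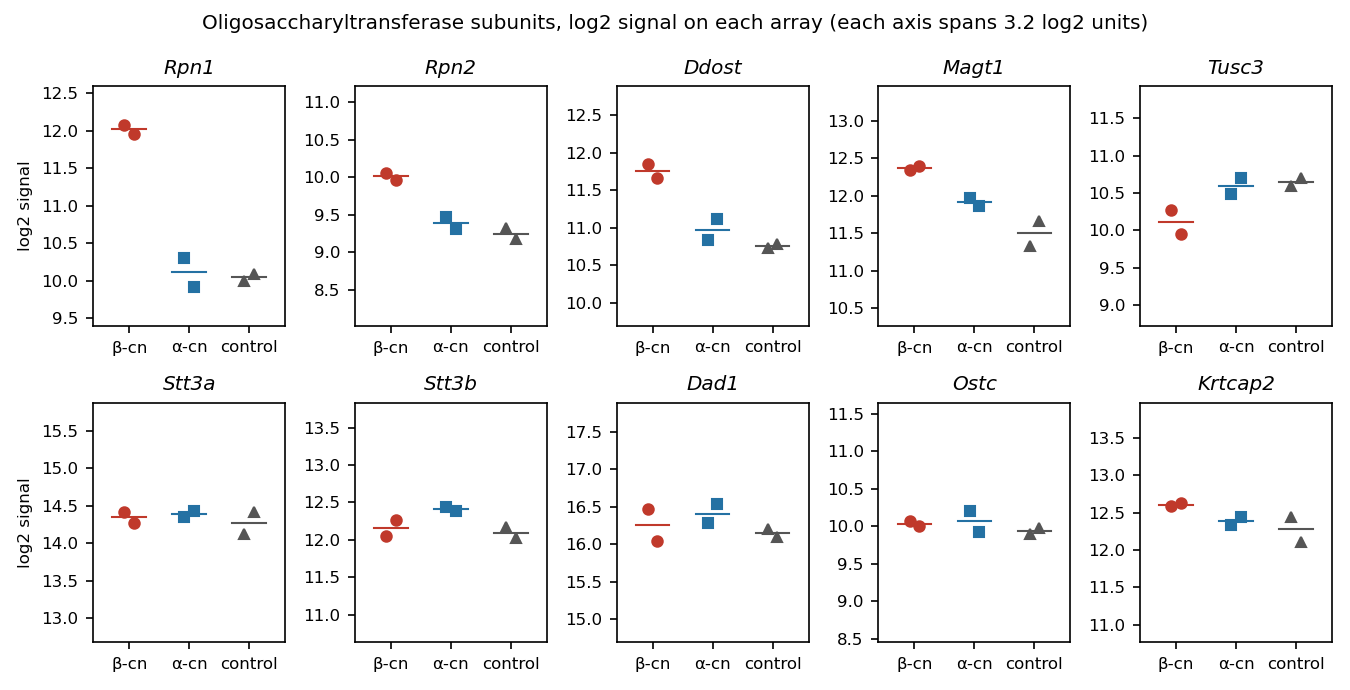
Log2 signal of the 10 oligosaccharyltransferase genes on each array, with a line at the group mean; every panel spans the same number of log2 units, and levels are not comparable between panels. Rpn1, Rpn2, Ddost, Magt1 and, by less, Krtcap2 stand above both other groups in ATF6β-cn, while the groups of Stt3a overlap.

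Promoter sequence was set beside these values because ATF6 is known to act through the ER stress response element, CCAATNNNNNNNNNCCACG, bound together with the CCAAT factor NF-Y. RefSeq windows (GRCm38.p6) of 250 bases before and 50 after the start were held for 30 of the 36 members and 7 of the 8 chaperones, and both strands were searched. The full element stood in 39 of 32851 windows of the genome (0.119%), in 5 of the 7 chaperones, in 1 of the 30 members (Alg12) and in none of the 8 oligosaccharyltransferase genes with a window. The type II element, ATTGG and CCACG with 1 base between them, stood in 12 windows (0.0365%), among them those of Dnajb11 and Krtcap2, after the start in both. The core of the unfolded protein response element, TGACGTGG, stood in 222 windows (0.676%) and in no member. The CCAAT letters alone, which are part of the first element and in reverse of the second, were in 37.4% of all windows. Counted by gene, they were in a window of 11096 of all 27025 genes, 8 of 8 oligosaccharyltransferase genes and 9 of 22 assembly genes.
The 250 bases before the start are shown for the called subunit Rpn1, for Ddost, for the catalytic Stt3a and, as a chaperone with the full element, for Hspa5, the ER chaperone BiP. Capitals mark CCAAT and CCACG on either strand (ATTGG and CGTGG in reverse), and each sequence is written 5′ to 3′ on the strand of its gene.
Rpn1, chr6:88084223-88084472, + strand: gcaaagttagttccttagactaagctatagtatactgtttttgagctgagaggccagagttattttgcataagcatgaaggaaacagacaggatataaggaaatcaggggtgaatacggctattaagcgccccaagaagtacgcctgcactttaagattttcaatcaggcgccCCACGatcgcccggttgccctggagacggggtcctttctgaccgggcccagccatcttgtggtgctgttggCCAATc
Ddost, chr4:138304488-138304737, + strand: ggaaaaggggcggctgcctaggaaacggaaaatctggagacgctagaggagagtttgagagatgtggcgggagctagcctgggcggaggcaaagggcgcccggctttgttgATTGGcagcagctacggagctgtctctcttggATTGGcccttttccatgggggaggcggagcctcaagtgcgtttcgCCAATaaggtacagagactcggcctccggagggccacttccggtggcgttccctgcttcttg
Stt3a, chr9:36767623-36767872, - strand: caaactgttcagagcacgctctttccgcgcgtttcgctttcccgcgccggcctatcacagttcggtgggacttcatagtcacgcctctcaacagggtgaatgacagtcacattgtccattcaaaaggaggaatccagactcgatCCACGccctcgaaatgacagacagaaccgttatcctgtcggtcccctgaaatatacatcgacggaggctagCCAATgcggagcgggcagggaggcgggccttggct
Hspa5, chr2:34771840-34772089, + strand: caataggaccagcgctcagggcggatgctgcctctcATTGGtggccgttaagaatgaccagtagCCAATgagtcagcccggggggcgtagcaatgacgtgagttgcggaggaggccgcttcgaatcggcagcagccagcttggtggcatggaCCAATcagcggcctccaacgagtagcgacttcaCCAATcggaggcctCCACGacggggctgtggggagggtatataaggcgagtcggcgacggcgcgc
In Hspa5 the last CCAAT and the CCACG are spaced as the element asks, starting at position −65 from the start. In the bases shown of Rpn1 and Stt3a both sets of letters occur, but CCACG comes first (position −77 in Rpn1 and −106 in Stt3a) and CCAAT after it (−6 and −35), so the element is not formed there. Such matches are a description of these windows, and whether either factor binds there was not measured.

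The assembly genes begin with the supply of activated mannose. Gmppa, the regulatory relative of the enzyme that makes GDP-mannose, read 9.02 and 8.87 in ATF6β-cn, 8.04 and 7.92 in ATF6α-cn, and 7.92 and 7.99 in control. Its ATF6β-cn arrays stood clear of the other 4, with a log2 fold change of 0.99 (0.51 to 1.47, adjusted p = 0.0717 from limma) in ATF6β-cn and 0.03 (−0.45 to 0.50) in ATF6α-cn. Gmppb, the catalytic enzyme, had log2 fold changes of 0.52 (−0.03 to 1.07) in ATF6β-cn, higher on both arrays, and −0.18 in ATF6α-cn.

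The other 7 supply genes were negative in ATF6β-cn. Pmm1, a phosphomannomutase, read 7.61 and 8.08 in ATF6β-cn, 7.52 and 7.80 in ATF6α-cn, and 8.52 and 8.47 in control. Each line lay below both control arrays, by a log2 fold change of −0.65 (−1.20 to −0.09, adjusted p = 0.284 from limma) in ATF6β-cn and −0.84 (−1.39 to −0.28, adjusted p = 0.404) in ATF6α-cn. Pmm2, the phosphomannomutase whose loss causes the commonest human congenital disorder of glycosylation, was at −0.29 in ATF6β-cn and −0.27 in ATF6α-cn, and every array of both lines was below control. Mpi, which makes the mannose phosphate that both mutases use, was at −0.49 in ATF6β-cn and −0.27 in ATF6α-cn, also below control on every array. Dpm1, the catalytic subunit of dolichol-phosphate mannose synthase, was at −0.78 (−1.36 to −0.20, adjusted p = 0.224) in ATF6β-cn and −0.64 (−1.22 to −0.05, adjusted p = 0.539) in ATF6α-cn, but its cluster also reads Adnp. Dpm3, the subunit that tethers Dpm1 to the membrane, was at −0.30 in ATF6β-cn and −0.43 in ATF6α-cn. Dpm2, which stabilises Dpm3, was at −0.55 in ATF6β-cn and −0.23 in ATF6α-cn. It was under the background level in the means of both lines. Mpdu1, which helps the lumenal enzymes use the dolichol-linked sugars, was at −0.23 in ATF6β-cn and 0.24 in ATF6α-cn, with overlapping arrays.

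Among the 4 dolichol genes, Dolpp1, the phosphatase that recycles the carrier after transfer, had a log2 fold change of 0.90 (0.13 to 1.66, adjusted p = 0.282 from limma) in ATF6β-cn and 0.49 (−0.27 to 1.25) in ATF6α-cn. The carrier's own synthesis genes Dhdds, Srd5a3 and Dolk lay between −0.31 and 0.01 in ATF6β-cn and between −0.09 and 0.16 in ATF6α-cn. Of these 3, Dolk, the dolichol kinase, was lower than control on both ATF6β-cn arrays.

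The cytosolic-face enzymes were positive in 5 of 6 cases in ATF6β-cn. Alg14, which anchors Alg13 to the membrane for the addition of the second sugar, read 8.10 and 7.44 in ATF6β-cn, 6.63 and 6.93 in ATF6α-cn, and 7.30 and 7.23 in control. The lines lay on opposite sides of control, with a log2 fold change of 0.50 (−0.11 to 1.11) in ATF6β-cn and −0.48 (−1.10 to 0.13) in ATF6α-cn. The direct difference was 0.99 (0.37 to 1.599, adjusted p = 0.254 from limma). Dpagt1, which commits dolichol to the pathway and is the target of tunicamycin, was at 0.41 in ATF6β-cn and 0.29 in ATF6α-cn, above control on every array of both lines. The mannosyltransferase Alg11 was at 0.43 in ATF6β-cn and 0.55 in ATF6α-cn, and Alg2 at 0.25 in ATF6β-cn and 0.32 in ATF6α-cn. Alg1, which adds the first mannose, was at −0.18 in ATF6β-cn and −0.33 in ATF6α-cn, and Alg13, the catalytic partner of Alg14, at 0.08 in ATF6β-cn and −0.13 in ATF6α-cn.

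On the lumenal face the mannosyltransferase Alg12 differed most between the lines. It read 7.65 and 7.68 in ATF6β-cn, 6.33 and 6.94 in ATF6α-cn, and 6.88 and 7.11 in control. The ATF6β-cn arrays were above the other 4, with log2 fold changes of 0.67 (0.08 to 1.26, adjusted p = 0.295 from limma) in ATF6β-cn and −0.36 (−0.94 to 0.23) in ATF6α-cn, and a direct difference of 1.03 (0.44 to 1.61, adjusted p = 0.206). The other mannosyltransferases were below control in each line, Alg3 at −0.41 in ATF6β-cn and −0.52 in ATF6α-cn, lower on every array, and Alg9 at −0.21 in ATF6β-cn and −0.33 in ATF6α-cn with overlapping arrays.

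Of the glucose steps, Alg8 had a log2 fold change of 0.73 (0.13 to 1.33, adjusted p = 0.264 from limma) in ATF6β-cn and 0.23 in ATF6α-cn, and its ATF6α-cn and control means were under the background level. Alg6, which adds the first glucose, was at 0.17 in ATF6β-cn and −0.09 in ATF6α-cn, and Alg5, which makes the glucose donor, at 0.11 in ATF6β-cn and −0.33 in ATF6α-cn. Alg10b, which adds the last glucose and completes the glycan, was at −0.41 in ATF6β-cn, lower on both arrays, and 0.00 in ATF6α-cn, read through its shared cluster.

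**Figure D3:**
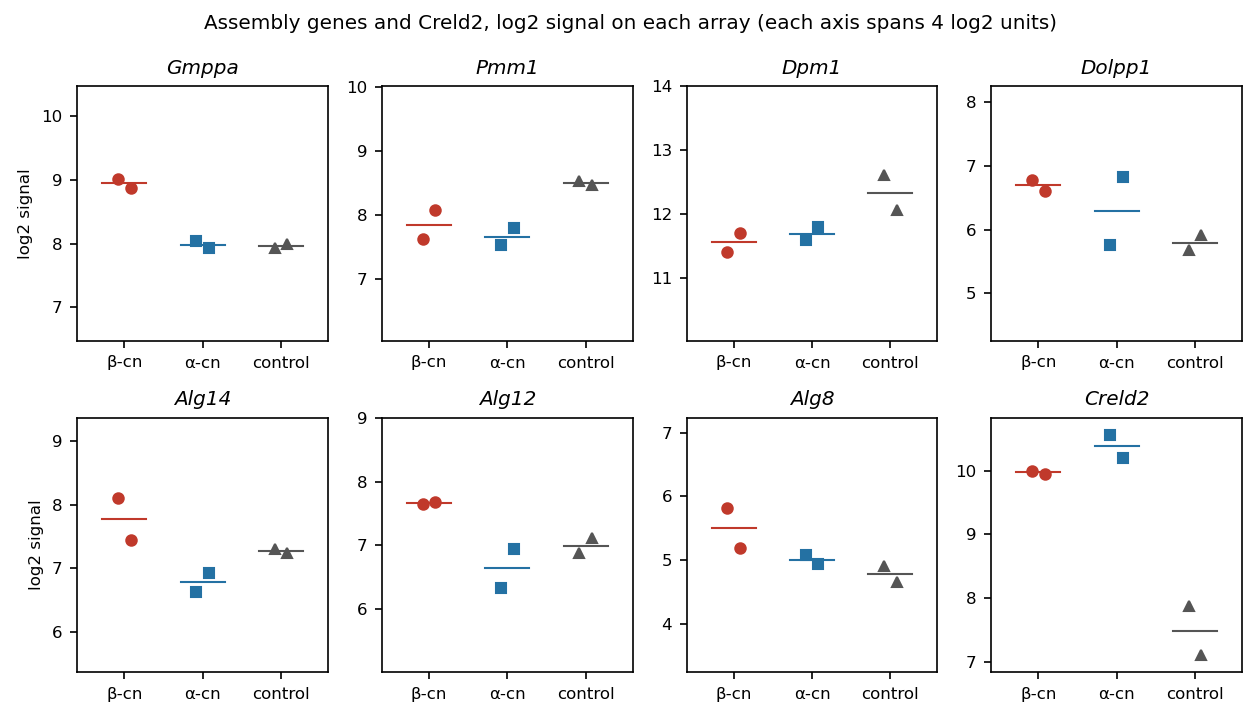
Log2 signal on each array of the 6 assembly genes with an unadjusted limma p under 0.05 in ATF6β-cn, of Alg14, and of the chaperone Creld2, with a line at the group mean; every panel spans the same number of log2 units. Gmppa and Alg12 are highest in ATF6β-cn and Pmm1 is below control in both lines, while Creld2 is above control in both.

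Alg12 is the member with the full element, and it shares it with a chaperone gene. Alg12 and Creld2, an ER folding factor, are transcribed away from each other on chromosome 15, with 327 bases between their starts (88819318 for Alg12 on the - strand and 88819646 for Creld2 on the + strand). The only full element between them lies 202 bases from the Alg12 start and 108 bases from the Creld2 start. The 250 bases before the Creld2 start are shown on the + strand, with the reversed CCACG and CCAAT letters of that element in capitals.
Alg12-Creld2, chr15:88819396-88819645, + strand: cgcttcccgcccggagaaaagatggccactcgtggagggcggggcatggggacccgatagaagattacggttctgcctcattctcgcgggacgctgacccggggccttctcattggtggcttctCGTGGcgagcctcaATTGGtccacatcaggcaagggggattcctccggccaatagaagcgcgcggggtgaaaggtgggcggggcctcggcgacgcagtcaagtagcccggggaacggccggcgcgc
Read on the strand of Alg12 the element is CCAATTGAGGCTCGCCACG. Creld2 read 9.996 and 9.95 in ATF6β-cn, 10.57 and 10.20 in ATF6α-cn, and 7.88 and 7.10 in control, and was called up in both lines (log2 fold change 2.48 in ATF6β-cn, adjusted p = 0.00723 from limma, and 2.89 in ATF6α-cn, adjusted p = 0.0107). Its neighbour was thus 0.67 above control in ATF6β-cn and 0.36 below it in ATF6α-cn on the log2 scale, neither called, while Creld2 was high in both.

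Assembly and transfer were then compared within each array. The mean difference of the 7 transfer genes from control was 0.64 and 0.53 on the ATF6β-cn arrays, 0.20 and 0.16 on the ATF6α-cn arrays, and −0.01 and 0.01 on the control arrays. That of the 26 assembly genes was 0.08 and −0.03 on the ATF6β-cn arrays, −0.13 and −0.11 on the ATF6α-cn arrays, and 0.05 and −0.05 on the control arrays. Transfer minus assembly was therefore 0.56 and 0.56 in ATF6β-cn and 0.33 and 0.27 in ATF6α-cn, against −0.06 and 0.06 in control, and the 3 groups did not overlap. With 2 arrays against 2 the smallest exact permutation p is 0.333, so no test of this value was made. Much of the ATF6β-cn mean came from Rpn1. The other 6 transfer genes averaged 0.41 and 0.29 in ATF6β-cn, 0.19 and 0.21 in ATF6α-cn, and 0.00 and 0.00 in control. Set against the assembly means above, these 6 genes exceeded assembly by about the same amount in both lines. The wider gap in ATF6β-cn was thus not seen without Rpn1. Ddost and Rpn2 were also higher in ATF6β-cn than in ATF6α-cn, by 0.78 and 0.62, while 4 of the 7 transfer genes were lower.

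**Figure D4:**
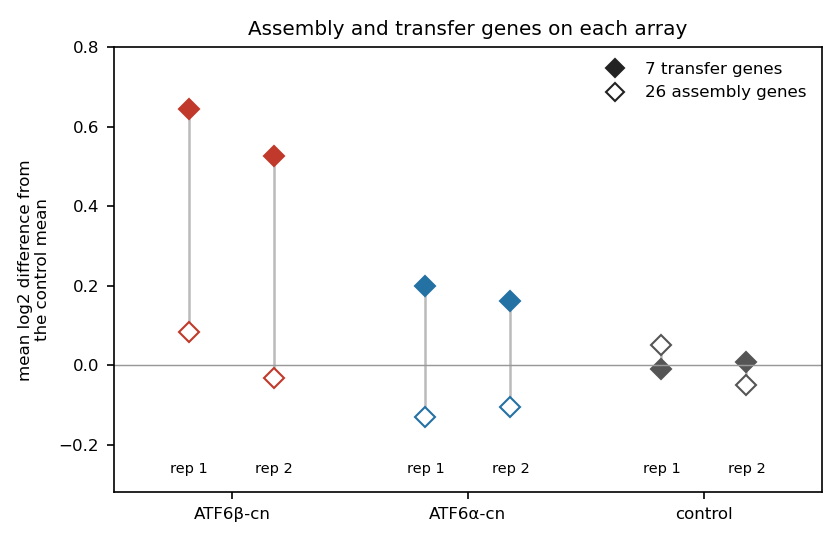
Mean log2 difference from the control mean of the 7 transfer genes (filled) and the 26 assembly genes (open) on each array, joined by a line. Replicate numbers were not used to pair arrays. The transfer genes lie above the assembly genes by 0.56 on both ATF6β-cn arrays and by 0.27 and 0.33 on the ATF6α-cn arrays. Without Rpn1 the gap is about as wide in both lines.

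In ATF6β-cn the medians of the 2 groups of genes lay closer together than their means. The median log2 fold change of the transfer genes was 0.10 in ATF6β-cn and 0.15 in ATF6α-cn, with all 7 positive in each line, from 0.06 to 1.97 in ATF6β-cn and from 0.06 to 0.32 in ATF6α-cn. That of the assembly genes was −0.08 in ATF6β-cn, with 13 positive and 13 negative, and −0.16 in ATF6α-cn, with 9 positive and 17 negative. Over all clusters the median was −0.02 in ATF6β-cn and −0.03 in ATF6α-cn. Both comparisons use the same control arrays, so their common direction is not independent. Within the assembly genes the 9 supply genes had medians of −0.30 in ATF6β-cn and −0.27 in ATF6α-cn, and the 7 lumenal-face genes 0.11 in ATF6β-cn and −0.33 in ATF6α-cn.

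Arrays that did not overlap were counted over all 36 genes. Both ATF6β-cn arrays were above both control arrays for 15 genes, where 21.1% of all clusters were, and below them for 10, where 23.3% were. Both ATF6α-cn arrays were above control for 6 genes beside 17.9% of clusters and below for 8 beside 21.6%. Both ATF6β-cn arrays were above both ATF6α-cn arrays for 13 genes beside 20.3% and below for 6 beside 19.4%. Of the 7 genes at an unadjusted p under 0.05 between the lines, 3 were transfer genes (Rpn1, Rpn2, Ddost), 2 were the supply genes Gmppa (0.96, adjusted p = 0.153 from limma) and Gmppb (0.70, adjusted p = 0.371), and the others were Alg12 and Alg14.

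Of 10 fibroblast markers none was called by limma. In ATF6β-cn 4 of them had an unadjusted limma p under 0.05, beside 13.9% of all clusters. In that line 7 were above control on both arrays, beside 21.1% of all clusters. The median log2 fold change of the 10 markers was 0.63 in ATF6β-cn and 0.07 in ATF6α-cn. Their summed linear signal was 355900 to 445200 in ATF6β-cn, 239700 to 263000 in ATF6α-cn and 248200 to 249000 in control, and none was under the background level. Dcn, a matrix proteoglycan, made 85.8% to 88.4% of that sum in ATF6β-cn, 86.1% to 88.5% in ATF6α-cn and 87.4% to 87.8% in control. Without Dcn, a sum added after the values were seen, the other 9 came to 41300 to 63070 in ATF6β-cn, 30290 to 33290 in ATF6α-cn and 30260 to 31360 in control. Not every marker followed the median: Postn was at −0.27 in ATF6β-cn and 0.85 in ATF6α-cn, and Mfap5 at −0.24 in ATF6β-cn and 0.92 in ATF6α-cn. The summed signal of the 8 cardiomyocyte markers was 4221000 to 4298000 in ATF6β-cn, 4363000 to 4405000 in ATF6α-cn and 4302000 to 4347000 in control. Whether these bright markers could show a moderate change was not tested.

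Of the endothelial, smooth muscle, pericyte and leukocyte markers none was called by limma in either line or between the lines. The 7 endothelial markers had a median log2 fold change of −0.28 in ATF6β-cn and 0.37 in ATF6α-cn. Between the lines (ATF6β-cn minus ATF6α-cn) all 7 were negative, with a median of −0.60, and 4 had an unadjusted limma p under 0.05, beside 9.67% of all clusters. Their summed signal was 41640 to 42350 in ATF6β-cn, 41810 to 66820 in ATF6α-cn and 46200 to 48140 in control. The 6 smooth muscle and pericyte markers had a median of −0.10 in ATF6β-cn and 0.16 in ATF6α-cn, and summed to 51950 to 93570 in ATF6β-cn, 56810 to 74520 in ATF6α-cn and 45370 to 52980 in control. Acta2, smooth muscle actin, read 14.42 and 15.91 in ATF6β-cn, 13.82 and 14.79 in ATF6α-cn, and 13.44 and 13.89 in control. Cspg4, a pericyte proteoglycan, was at −0.83 in ATF6β-cn. These 2 of the 6 had an unadjusted limma p under 0.05 in ATF6β-cn, beside 13.9% of all clusters. The 8 macrophage and leukocyte markers had a median of 0.28 in ATF6β-cn and 0.05 in ATF6α-cn, and summed to 9481 to 16760 in ATF6β-cn, 9725 to 9891 in ATF6α-cn and 8309 to 9051 in control. Of all these lists only Cd3e, a T cell marker, was under the background level, in every group. The part of any of these markers in the values of Rpn1, Ddost, Rpn2, Magt1 and Gmppa was not tested.

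Genes on either side of the pathway that are no members were read for context. Of 11 further pathway genes none was called by limma in either line. At an unadjusted limma p under 0.05 there were 2 in ATF6β-cn, beside 13.9% of all clusters, and 1 in ATF6α-cn, beside 8.92%. The 11 genes include Nus1, the partner of Dhdds, at 0.21 in ATF6β-cn and 0.14 in ATF6α-cn. They also include small transferase subunits. Ost4 was at 0.29 in ATF6β-cn and −0.13 in ATF6α-cn, and Tmem258 at −0.18 in ATF6β-cn and −0.26 in ATF6α-cn. Uap1, the last enzyme of UDP-N-acetylglucosamine synthesis, read 11.24 and 11.06 in ATF6β-cn, 10.63 and 10.49 in ATF6α-cn, and 10.28 and 9.67 in control, with no overlap between groups. Its log2 fold change was 1.18 in ATF6β-cn (adjusted p = 0.0793 from limma) and 0.59 in ATF6α-cn (adjusted p = 0.557). Of 13 genes of O-mannosylation, C-mannosylation and the glycolipid anchor, which draw on the same dolichol-linked mannose, none was called by limma in either line. In each line 1 had an unadjusted limma p under 0.05, beside 13.9% of all clusters in ATF6β-cn and 8.92% in ATF6α-cn. The medians of the 13 genes were 0.14 in ATF6β-cn and −0.02 in ATF6α-cn.

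Downstream, 3 of 11 genes that trim and read the transferred glycan were called up in ATF6β-cn, where 1.10% of all clusters were called. In ATF6α-cn 1 was called up, where 0.0946% of all clusters were called. Uggt1, the folding sensor that puts glucose back on misfolded glycoproteins, read 13.17 and 12.96 in ATF6β-cn, 12.23 and 11.83 in ATF6α-cn, and 10.59 and 10.94 in control. Its log2 fold change was 2.30 in ATF6β-cn (adjusted p = 0.00487 from limma) and 1.26 in ATF6α-cn (adjusted p = 0.212). The lectin calreticulin (Calr) was called in each line, at 1.82 in ATF6β-cn and 1.74 in ATF6α-cn. It is also 1 of the 8 chaperones counted above as known ATF6 targets, so its calls appear in both counts. Its partner oxidoreductase Pdia3 was called in ATF6β-cn, at 1.38 against 1.21 in ATF6α-cn. Prkcsh, the regulatory subunit of glucosidase II, read 9.63 and 9.63 in ATF6β-cn, 8.31 and 8.52 in ATF6α-cn, and 8.36 and 8.62 in control, so that its ATF6β-cn arrays stood above the other 4, without passing the test (log2 fold change 1.14 in ATF6β-cn, adjusted p = 0.0536 from limma, and −0.08 in ATF6α-cn). Its catalytic partner Ganab was at 0.22 in ATF6β-cn and 0.14 in ATF6α-cn, and the membrane lectin Canx at 0.25 in ATF6β-cn and 0.16 in ATF6α-cn.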

How the data were processed

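RNA of 6 mice, 2 per group, was measured on 6 arrays. The authors deposited log2 signals, 1 per probe set and array, already normalized. Affymetrix Expression Console is the tool in the submitters' notes; which version, background correction and summary it used is unknown here. Deposited sheets with the authors' fold changes and p-values were used only to pair probe sets with gene symbols. Of 28846 probe sets, 6640 controls were left out and 22206 clusters were fitted in R 4.3.3 with limma 3.58.1, with 1 mean per group (3 residual and 5.63 prior degrees of freedom), Benjamini-Hochberg adjustment over all clusters and 95% intervals. No filter on signal was applied. The number of arrays limits the precision. The steps were tested on simulated data.

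Values on each array are given for the 7 transfer genes, for members called in a comparison and for members at an unadjusted p under 0.01, and other genes are named only from lists. Members, lists and tests were chosen with earlier results of these data known. Alternatives were quantile normalization, median centring, removal of dim clusters, a robust fit with a variance trend, weights per array, a replicate block, fits on only the 4 arrays compared, leaving out each array, the mean of all clusters of a gene, members of shared clusters left out, Tusc3, Magt1 and Krtcap2 counted as transfer genes, and the methods' t-test. Since each member had 1 cluster, the mean of all clusters of a gene could not change any member and checks nothing here. Promoter windows came from RefSeq (GRCm38.p6), and no protein sequences were used.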

Additional observations from a re-analysis of the deposited data

Results flagged for a closer look

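Rpn1 was flagged because its change against control differed between the lines by a test of the difference itself. Its log2 fold change in ATF6β-cn exceeded that in ATF6α-cn by 1.91 (95% interval 1.39 to 2.43, adjusted p = 0.0205 from limma), with both ATF6β-cn arrays above both ATF6α-cn arrays. No other member passed this test. Transgene levels differed between the lines according to the paper, so the factor and its level cannot be told apart here. The call between the lines was lost when either ATF6β-cn array was left out (adjusted p from limma of 0.174 without replicate 1 and 0.177 without replicate 2). It was also lost when replicate 2 of ATF6α-cn was dropped (0.17), and it was kept with array weights (0.0186).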

How the results depend on the processing

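Rpn1 kept its direction and its call in ATF6β-cn under quantile normalization, median centring, removal of dim clusters, a variance trend with a robust fit, array weights and the 4 arrays alone. It lost the call when either ATF6β-cn array or either control array was left out (0 to 1 member called over the 6 fits) and by the methods' t-test after adjustment (0 members). With dim clusters left out 2 members were called in ATF6β-cn (Gmppa and Rpn1), and with the variance trend and robust fit 4 (Ddost, Gmppa, Magt1 and Rpn1). The t-test without adjustment called 9 members in ATF6β-cn, 1 in ATF6α-cn (Pmm1) and 7 between the lines. Between the lines 0 to 1 member was called with an array left out, and 0 by the adjusted t-test. Where an array was left out, the remaining array of its group was assumed to vary like the other groups.

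Counts over all clusters moved more. In ATF6β-cn 244 became 371 without dim clusters, 686 with the variance trend, 41 to 190 with an array left out (46 and 41 without ATF6β-cn replicates 1 and 2, 73 and 50 without control replicates 1 and 2), and 0 or 2266 by the t-test with or without adjustment. In ATF6α-cn 21 became 61 with the variance trend, 13 on the 4 arrays alone, 9 to 13 with an array left out and 0 or 1522 by the t-test. Between the lines 60 became 38 under quantile normalization, 257 with the variance trend, 36 on the 4 arrays alone, 9 to 36 with an array left out and 0 or 1633 by the t-test. Arrays with the same replicate number did not deviate together over all clusters (correlations of −0.02, 0.02 and 0.01). The labels do not say whether the numbers pair arrays, and a small shared effect would not be seen this way. With the replicate block 27 clusters passed between the lines, 189 in ATF6β-cn and 16 in ATF6α-cn. Rpn1 was called with the replicate block in ATF6β-cn (adjusted p = 0.0179 from limma) and between the lines (0.0441).

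Transfer minus assembly ranged with an array left out from 0.50 to 0.62 in ATF6β-cn and from 0.24 to 0.36 in ATF6α-cn, the extremes being those without control replicate 1 and 2. Counting Tusc3, Magt1 and Krtcap2 as transfer genes gave 0.45 in ATF6β-cn and 0.16 for ATF6β-cn minus ATF6α-cn, where the 7 genes gave 0.26, and a transfer median of 0.094 between the lines. The transfer median ranged from 0.10 to 0.32 in ATF6β-cn (highest without ATF6β-cn replicate 2) and from −0.064 to 0.12 between the lines (highest without ATF6α-cn replicate 1). The assembly median in ATF6β-cn ranged from −0.21 to 0.11 (highest without control replicate 1) and was 0.05 without the members of shared clusters.

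Small fold changes turned their sign with an array left out, none of them called. In ATF6β-cn these were Stt3a (−0.071 to 0.23), Stt3b (−0.050 to 0.18) and Dad1 (−0.11 to 0.32). In ATF6α-cn they were Rpn1 (−0.13 to 0.26), Stt3a (−0.024 to 0.27), Ostc (−0.012 to 0.28) and Gmppa (−0.032 to 0.088). Between the lines they were Stt3a (−0.12 to 0.026), Dad1 (−0.36 to 0.068), Ostc (−0.17 to 0.12) and Pmm1 (−0.044 to 0.42). The cause of these shifts was not tested.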
